A study of Mus musculus with 23 samples.

Results

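The comparison described here is the difference between endothelial and tumor cells in their response to 21 days of nintedanib, measured on 16 of the 23 arrays of the study. For each gene it is the long-term minus untreated difference in endothelial cells, minus the same difference in tumor cells, on the log2 scale. A positive value means that the level in treated relative to untreated cells was higher in endothelial cells than in tumor cells. Its members are the 19938 genes that the array annotation names by 1 transcript cluster each, taking the cluster with the highest mean where a gene had several. The groups are 5 arrays of endothelial cells after long-term treatment and 3 of untreated endothelial cells, and 5 arrays of tumor cells after long-term treatment and 3 of untreated tumor cells. Tumor cells are Py2T, a mouse breast cancer cell line, grown in the mammary fat pad of female FVB/N mice, and endothelial cells are those of the tumor blood vessels. Both were sorted from the tumors by flow cytometry. Treated mice received nintedanib at 50 mg per kg body weight for 21 days, and the untreated tumors were of the same size as the long-term ones, without a match in time. The other 7 arrays, 3 of endothelial and 4 of tumor cells after 7 days of treatment, entered the fit through the shared spread between arrays. The labels call arrays of a group biological replicates, without saying how many tumors gave the cells of 1 array. Nor do they say whether same-numbered endothelial and tumor cell arrays came from the same tumor. Py2T is a single line.

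Nintedanib inhibits the receptor tyrosine kinases for vascular endothelial growth factor (VEGF), fibroblast growth factor (FGF) and platelet-derived growth factor (PDGF). Endothelial cells of growing tumor vessels depend on VEGF receptor signaling for division and sprouting. Tumor cells can meet the drug through their own receptors and through the vessels, whose loss lowers the supply of oxygen and nutrients. Cells short of oxygen stabilise hypoxia-inducible factors, which raise genes of glucose uptake, glycolysis and lactate export, and lactate from one cell can fuel another.

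Endothelial markers set the sorted cells apart, and epithelial markers did so less. The mean of 22 endothelial markers lay between 10.02 and 10.40 in long-term and between 9.92 and 10.44 in untreated endothelial arrays, against 4.17 to 4.34 in long-term and 4.22 to 4.25 in untreated tumor cells (log2 signal). By the mean of 20 macrophage markers, endothelial arrays 3 and 4 of the long-term group and array 1 of the untreated group were highest, at 7.41, 6.63 and 7.33. The other 5 endothelial arrays lay between 4.76 and 5.92, and the tumor cell arrays between 4.36 and 4.89. Taking these 3 as high is a cut made after seeing the values, with long-term array 4 between 5.92 and 7.33. The mean of 20 epithelial markers was 5.22 to 5.85 in the other long-term and 5.29 to 5.70 in the untreated endothelial arrays, against 5.79 to 6.31 in long-term and 5.74 to 6.10 in untreated tumor cells. Long-term endothelial array 4, at 6.5, lay above all of these tumor cell arrays. In such bulk arrays a larger share of another cell type and more of its RNA per cell cannot be told apart. Arrays were therefore also left out for the results below.

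No gene passed the test of the cell type difference. By limma, with Benjamini-Hochberg adjustment over all genes, 0 of 19938 genes were called at an adjusted p under 0.05 (0% of genes), and the smallest adjusted p was 0.207. With 1 array left out at a time, 0 to 5 genes were called, 5 of them without untreated endothelial replicate 1. At an unadjusted p under 0.05 there were 1063 genes (5.33%), 555 with a positive and 508 with a negative difference, where 997 would pass by chance. The fold changes were not small everywhere: 343 genes had a difference of over 2-fold between the cell types' effects, and the range was -2.62 to 2.82. Precision set a limit, since the median standard error was 0.23 and the median half-width of the 95% interval 0.48. For 14571 genes (73.1%) the interval lay within a 2-fold difference in either direction, so a difference of over 2-fold was outside the interval for these and was not settled for the rest.

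The 2 effects showed little relation across genes. Endothelial and tumor cell effects had the same sign in 10448 of 19938 genes (52.4%), and their correlation across genes was r = 0.09 and rho = 0.08, given as a description, since genes are not independent and the noise of each effect is included. The standard deviation of effects across genes was 0.28 in endothelial and 0.21 in tumor cells. Arrays of 1 group also differed more in endothelial cells, with a median residual standard deviation of 0.26, against 0.16 in tumor cells. Within the cell types 0 genes were called in endothelial cells by limma (833 at an unadjusted p under 0.05), against 18 in tumor cells (0.0903%), of which 15 rose (0.0752%) and 3 fell (0.0150%). The order of these counts depended on the fit: over all 23 arrays in one fit 34 genes were called in endothelial and 9 in tumor cells. That fit gives both cell types a shared spread per gene, although their residual standard deviations differed as given above. Leaving out 1 tumor array at a time gave 5 to 30 calls in tumor cells, with 30 without untreated replicate 1 and 5 without untreated replicate 2 or 3.

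**Figure D1:**
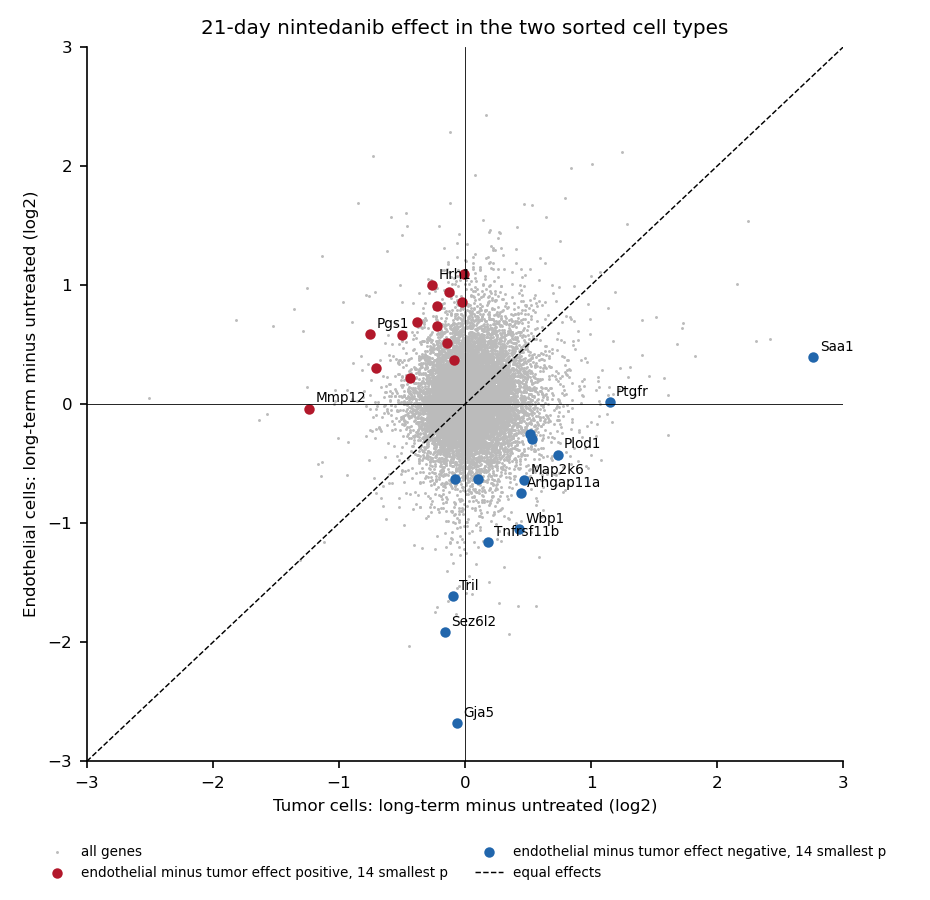
Each point is 1 of 19938 genes, placed by its long-term minus untreated difference in tumor cells (x axis) and in endothelial cells (y axis), in log2 units. Red and blue points are the 14 genes with the smallest p in each direction of the cell type difference, those with a difference of over 1.1 carry their names, and the dashed line marks equal effects; Gja5, Sez6l2 and Tril lie low on the endothelial axis and near 0 on the tumor axis, while Saa1 lies near 2.76 on the tumor axis.

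The 28 genes described first are the 14 with the smallest p in each direction, none of which passed (adjusted p 0.207 to 0.448). Of these, 19 had the larger effect in endothelial cells and 9 in tumor cells, and in 21 the effects had opposite signs, which the choice by this contrast favors. Comparing arrays, 10 of the 28 were higher and 8 lower in all long-term than in all untreated endothelial arrays, where 2.14% and 1.36% of all genes were so separated. In tumor cells 7 were higher and 6 lower without overlap, where 2.99% and 3.04% of all genes were. These shares describe genes chosen on the same arrays and support nothing.

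Among leading genes with a negative difference, Gja5 had the largest size. It encodes connexin 40, a gap junction protein of arterial endothelium. Its log2 level was 6.28, 6.35, 4.61, 4.91 and 4.60 in long-term endothelial arrays, against 7.42, 8.23 and 8.44 in untreated ones. In tumor cells it was 4.07, 3.81, 4.02, 4.21 and 3.79 after long-term treatment and 3.88, 4.15 and 4.08 without. All treated endothelial arrays lay below all untreated ones, and the tumor groups overlapped at a low level. The endothelial effect was -2.68 ± 0.62 (SE), the tumor effect -0.06 ± 0.11 and the difference -2.62 (95% interval -3.97 to -1.27, limma adjusted p = 0.422). The 2 treated arrays highest in macrophage markers, 3 and 4, were among the 3 lowest for Gja5, and the untreated array highest in them was likewise the lowest untreated one. Over all alternative fits the difference ran from -2.92 to -2.41, the fit without the 3 arrays high in macrophage markers included.

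Sez6l2, a membrane protein related to seizure-related gene 6, had a similar form. It was at 5.21, 4.84, 4.63, 4.99 and 5.39 in long-term endothelial arrays, against 6.23, 7.31 and 7.26 in untreated ones, without overlap. In tumor cells it was between 3.70 and 3.98 after long-term treatment and between 3.92 and 4.10 without. The difference of effects was -1.76 ± 0.36 (adjusted p = 0.207 by limma). Tril, a Toll-like receptor 4 interactor with leucine-rich repeats, was at 5.48, 6.08, 5.99, 5.49 and 5.50 in long-term endothelial arrays, against 6.90, 6.87 and 8.19 in untreated ones. Its tumor cell levels stayed between 3.91 and 4.18 in both groups, and the difference was -1.51 ± 0.32 (limma adjusted p = 0.207).

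Tnfrsf11b encodes osteoprotegerin, a secreted decoy receptor for the ligand of RANK. It was at 5.64, 5.66, 5.79, 5.79 and 5.40 in long-term endothelial arrays, against 5.90, 7.26 and 7.29 in untreated ones. The untreated array close to the treated ones was replicate 1, the untreated array highest in macrophage markers. The difference of effects was -1.34 ± 0.30 (adjusted p = 0.23 by limma). With 1 array left out at a time it ran from -1.8 to -1.11. Without the 3 endothelial arrays high in macrophage markers, untreated replicate 1 included, it was -1.89. In this setting, chosen after seeing the data, it passed with limma adjusted p = 3.23e-05, where 2 genes passed in all. Golt1b, a Golgi transport protein outside the naming rule, was the other.

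Arhgap11a, a GTPase-activating protein for RhoA, had opposite effects in the 2 cell types. Its levels in long-term endothelial arrays were 4.36, 4.90, 4.61, 4.41 and 4.79, against 5.35, 5.39 and 5.33 in untreated ones. Long-term tumor cells had 6.24, 6.45, 6.34, 6.33 and 5.59, against 5.60, 5.97 and 5.66 in untreated tumor cells. The endothelial groups did not overlap, and 1 treated tumor array, replicate 5, lay among the untreated ones. The effects were -0.75 ± 0.14 and 0.44 ± 0.18, and their difference was -1.19 ± 0.24 (limma adjusted p = 0.207). With 1 array left out at a time the difference ran from -1.34 to -1.12. It was -1.34 and passed (limma adjusted p = 0.0251) without tumor replicate 5 of the long-term group. Leaving out that array, the one among the untreated ones, favors a larger difference.

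For 3 further genes the tumor cell effect was the larger part of the negative difference. Ptgfr, the prostaglandin F receptor, was at 5.25, 5.81, 5.26, 5.16 and 5.51 in long-term tumor cells, against 3.84, 4.11 and 4.81 in untreated ones. Its endothelial levels ran from 3.73 to 3.96 after treatment and from 3.74 to 3.97 without. The tumor groups did not overlap and the endothelial groups did, with a difference of effects of -1.13 ± 0.23 (adjusted p = 0.207 by limma). With 1 array left out at a time it ran from -1.40 to -0.92. It was -1.40 and passed (limma adjusted p = 0.00872) without untreated tumor replicate 3, the untreated array nearest the treated ones.

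Saa1 encodes serum amyloid A, an acute phase protein. Its levels were 6.30, 8.11, 5.20, 5.92 and 6.75 in long-term tumor cells, against 4.10, 3.54 and 3.44 in untreated ones, without overlap. In endothelial cells they were 3.39, 3.81, 3.59, 3.89 and 3.09, against 3.46, 3.01 and 3.02, all low and overlapping. The tumor effect was 2.76 ± 0.49 (limma adjusted p = 0.0745) and the difference -2.37 (95% interval -3.58 to -1.16, adjusted p = 0.405). The related gene Saa2 had a difference of -1.88 ± 0.76 with a tumor effect of 2.42 ± 0.55.

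Plod1, a lysyl hydroxylase that modifies collagen, was at 8.17, 8.33, 8.25, 8.38 and 8.43 in long-term tumor cells, against 7.33, 7.90 and 7.51 in untreated ones. In endothelial cells it was higher throughout, at 10.05, 10.03, 9.95, 9.55 and 9.54 after treatment and 9.88, 10.32 and 10.54 without, with overlap. The effects were -0.42 ± 0.18 in endothelial and 0.73 ± 0.17 in tumor cells, and the difference was -1.16 ± 0.26 (limma adjusted p = 0.23). Map2k6, a kinase that activates p38, was the one leading gene lower without overlap in treated endothelial cells (4.35 to 5.08, against 5.20 to 5.66) and higher without overlap in treated tumor cells (5.10 to 5.58, against 4.75 to 4.83). Of all genes 0.0351% had that pattern. Its difference was -1.11 ± 0.25. The other leading genes with negative differences were Klhl23 (-0.73), B4galt5 (-0.76), Ppp1r3f (-0.82), Dnase1l3 (-0.55) and Wbp1 (-1.48).

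Among genes with a positive difference, Tcf3 and Slc20a1 had effects of opposite sign, each without overlap of the arrays in either cell type, which 0.0552% of all genes showed. Tcf3 encodes E proteins, transcription factors of the basic helix-loop-helix type. It was at 9.79, 10.19, 9.49, 9.97 and 9.49 in long-term endothelial arrays, against 8.91, 9.28 and 9.10 in untreated ones, and at 9.55, 9.49, 9.49, 9.29 and 9.37 in long-term tumor cells, against 9.83, 9.95 and 9.67. The gap between the cell types was smaller in treated than in untreated arrays. The difference was 1.07 ± 0.21 (limma adjusted p = 0.207), from 0.69 ± 0.19 in endothelial and -0.38 ± 0.09 in tumor cells.

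Slc20a1 encodes a sodium-dependent phosphate transporter. Long-term endothelial arrays had 8.73, 8.85, 8.88, 8.76 and 9.28, against 8.45, 8.64 and 8.69 in untreated ones. Tumor cells had 8.93, 8.91, 9.0, 8.72 and 8.91 after treatment, against 9.41, 9.61 and 9.79. The larger part lay in the tumor cells, with effects of 0.30 ± 0.18 in endothelial and -0.71 ± 0.12 in tumor cells and a difference of 1.01 ± 0.21 (limma adjusted p = 0.207).

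Mmp12 encodes macrophage metalloelastase, a protease that degrades elastin, and had the smallest p of the leading genes in this direction. Its level was 3.66, 3.77, 4.20, 3.65 and 4.02 in long-term tumor cells, against 5.05, 4.66 and 5.58 in untreated ones, and 3.41 to 3.69 in treated and 3.56 to 3.58 in untreated endothelial cells. In tumor cells alone it fell by 1.24 ± 0.19 on the log2 scale (adjusted p = 0.0397 by limma), and the difference between the cell types was 1.2 ± 0.23 (adjusted p = 0.207). Macrophage marker means of the tumor arrays were 4.47 to 4.85 in treated and 4.36 to 4.89 in untreated cells, and their part in the result was not tested.

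Hrh1, the histamine H1 receptor, and Gna11, an alpha subunit of G proteins that couple to it, both had the larger effect in endothelial cells. Hrh1 was at 5.50, 5.90, 5.64, 6.17 and 5.90 in long-term endothelial arrays, against 4.87, 5.17 and 4.42 in untreated ones, and at 4.45 to 4.90 in treated and 4.83 to 5.07 in untreated tumor cells. Gna11 was at 9.80, 9.60, 9.25, 9.84 and 9.55, against 8.11, 8.78 and 9.11, in the same endothelial groups. Both separated the endothelial groups without overlap. Their differences were 1.26 ± 0.27 (adjusted p = 0.207) and 1.07 ± 0.27 (adjusted p = 0.448) by limma. Ilk, the integrin-linked kinase, had endothelial levels of 9.46 to 10.08 after treatment, against 8.61 to 9.16, and a difference of 0.88 ± 0.21. The remaining leading genes with positive differences were Lrrc42 (1.05), Pbx2 (0.88), Crybb3 (0.65), Ptov1 (0.66), Actc1 (0.46), Pgs1 (1.34), Fbxo9 (1.1) and Foxp4 (1.08).

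**Figure D2:**
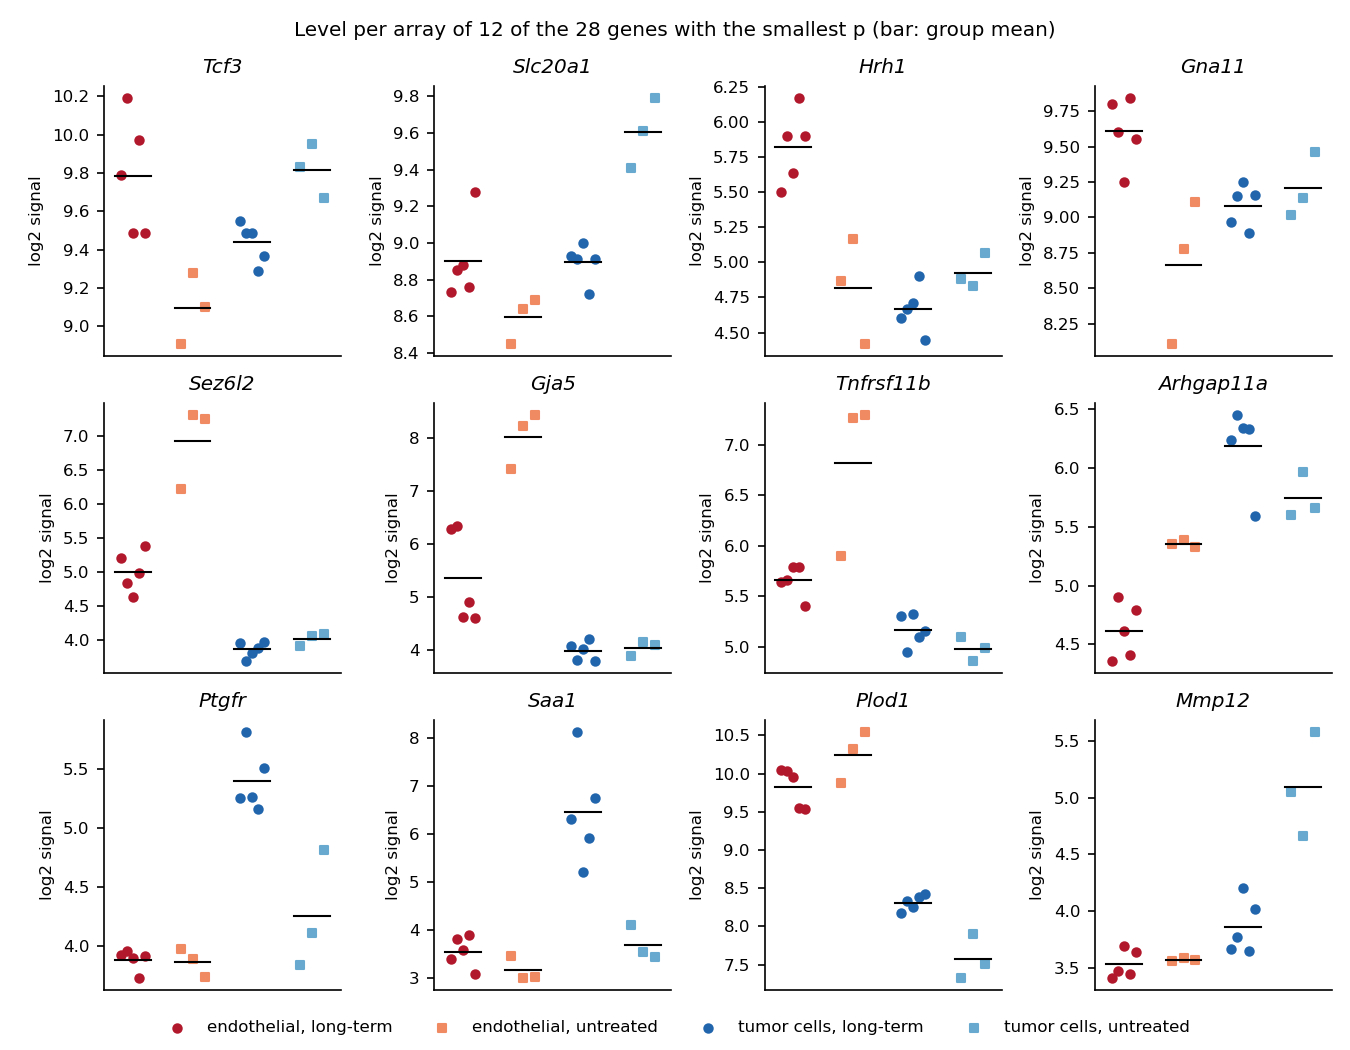
Log2 signal of 12 of the 28 leading genes in each array of the 4 groups, from left to right long-term and untreated endothelial cells and long-term and untreated tumor cells, with bars at group means. In Sez6l2, Gja5 and Tnfrsf11b the long-term endothelial arrays lie below the untreated ones while tumor cells stay low, whereas in Ptgfr, Saa1 and Plod1 the tumor cell groups separate.

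Mitosis genes mostly had effects of opposite sign in the 2 cell types. These genes encode the kinases, motors and kinetochore proteins of dividing cells, and their level in a population follows the share of cells in or near division. Of 31 measured, 30 had a negative difference, against 45.0% of all genes, and the median was -0.84, against 0.03 over all genes. Effects were negative in 29 of 31 in endothelial cells (median -0.52) and positive in 30 of 31 in tumor cells (median 0.38), with 28 genes negative in the first and positive in the second. By limma 0 of the 31 were called, and 15 had an unadjusted p under 0.05, all lower, where 2.55% of all genes were.

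Bub1, a kinase of the spindle checkpoint, had the smallest p of these genes. It was at 3.49, 3.26, 4.13, 4.21 and 3.42 in long-term endothelial arrays, against 4.29, 4.35 and 5.0 in untreated ones, without overlap. Long-term tumor cells had 4.99, 5.67, 5.50, 6.03 and 4.57, against 4.87, 4.71 and 4.77 in untreated ones, with treated replicate 5 below them. The difference was -1.41 ± 0.38 (adjusted p = 0.495 by limma), from -0.85 ± 0.26 in endothelial and 0.57 ± 0.25 in tumor cells.

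Tpx2, which nucleates spindle microtubules, had a difference of -1.47 ± 0.41 (endothelial -1.02, tumor 0.44). Kif2c, a kinesin that depolymerises microtubules, had -1.13 ± 0.31 (endothelial -0.46, tumor 0.68), and the centrosomal kinase Nek2 had -0.74 ± 0.21 (endothelial -0.18, tumor 0.56). The first was mainly endothelial and the last mainly tumor cell in size. Ndc80, a kinetochore protein, was the 1 gene of the list with a positive difference, 0.30.

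By array, the mean of the 31 genes was 5.30, 5.49, 6.11, 6.16 and 5.65 in long-term endothelial arrays, against 6.23, 6.03 and 6.42 in untreated ones. In tumor cells it was 6.63, 7.17, 7.32, 7.42 and 6.37 after long-term treatment, against 6.52, 6.64 and 6.62. Treated endothelial arrays 3 and 4 reached into the untreated range, and treated tumor replicate 5 lay below all untreated tumor arrays. The 2 treated endothelial arrays highest in the mitosis mean were also the 2 highest in macrophage markers. Without the 3 endothelial arrays high in macrophage markers the median difference was -1.06, with 30 of 31 negative and 20 at an unadjusted p under 0.05. Over all 19938 genes the count at that p rose as well, from 1063 to 1651. Over all arrays left out in turn the median ran from -1.01 to -0.68.

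**Figure D3:**
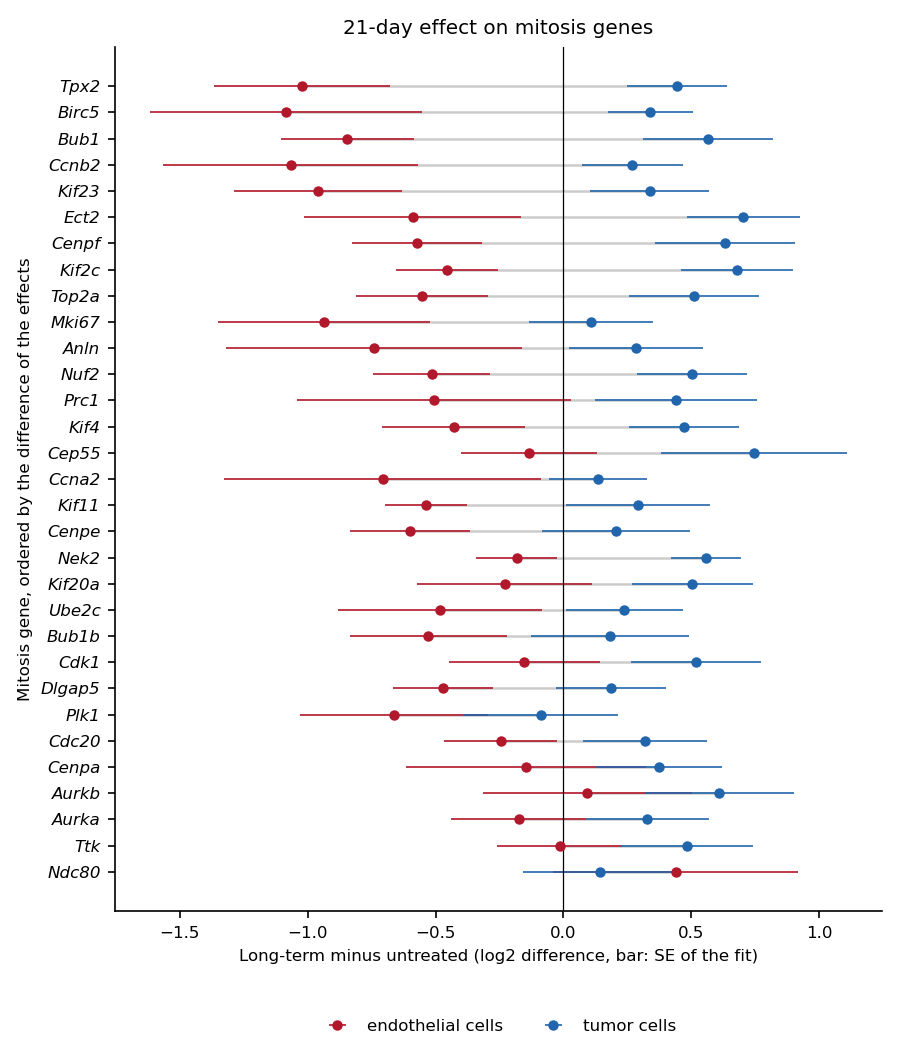
Long-term minus untreated difference (log2, bars are standard errors of the fit) of 31 mitosis genes in endothelial cells (red) and tumor cells (blue), ordered by the difference between them. In 28 genes the red point is below 0 and the blue above, and Ndc80 at the bottom has the opposite order.

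DNA replication genes are a further group of dividing cells, and the 2 lists were not tested against each other. Of 25 measured, 17 had a negative difference with a median of -0.27, effects were positive in 15 of 25 in endothelial and in 22 of 25 in tumor cells, and 0 were called. Without untreated endothelial replicate 1 the median was -0.02. Tk1, a thymidine kinase of S phase, had the lowest difference at -1.18 ± 0.58.

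The promoter of Bub1 is shown as that of the mitosis gene with the smallest p, beside that of Arhgap11a, a leading gene outside the mitosis list with effects of the same signs. Many promoters of mitosis genes hold a cell-cycle genes homology region, a site whose core is TTTGAA or TTCGAA. The windows run from 250 bases before to 50 after the gene's start in RefSeq on GRCm38.p6, and capitals mark the core on either strand. Bub1 lies at chr2:127831810-127832109 and Arhgap11a at chr2:113848612-113848911, both on the minus strand.
Bub1: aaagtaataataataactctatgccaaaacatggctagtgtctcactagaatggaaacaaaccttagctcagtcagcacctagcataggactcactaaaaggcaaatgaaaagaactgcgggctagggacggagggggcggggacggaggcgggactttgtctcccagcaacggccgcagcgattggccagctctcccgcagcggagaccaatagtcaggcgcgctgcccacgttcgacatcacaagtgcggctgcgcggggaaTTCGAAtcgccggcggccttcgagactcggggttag
Arhgap11a: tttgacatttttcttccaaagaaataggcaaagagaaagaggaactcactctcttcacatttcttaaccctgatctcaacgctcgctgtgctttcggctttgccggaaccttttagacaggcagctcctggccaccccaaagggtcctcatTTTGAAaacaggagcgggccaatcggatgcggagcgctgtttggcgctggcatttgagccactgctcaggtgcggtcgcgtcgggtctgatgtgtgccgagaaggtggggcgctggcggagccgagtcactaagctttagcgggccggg
The core starts 15 bases after the gene's start in Bub1 and 99 before it in Arhgap11a. Counting both strands, it was in the window of 22 of the 26 mitosis genes with a RefSeq window (84.6%), against 19.0% of 15614 genes with one. For DNA replication genes the share was 28.6%. A box spelled CCAAT, which does not overlap these letters, was in 76.9% of mitosis genes, 71.4% of DNA replication genes and 41.7% of all. A match of letters is a description and not a binding site.

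Immediate early genes had a positive median difference. They are transcription factors and feedback regulators induced within minutes of growth factor signals or of stress, cell dissociation included. Of 22 measured, 18 had a positive difference (55.0% of all genes), with medians of 0.33 for the difference, 0.66 in endothelial and 0.29 in tumor cells. Of them 0 were called and 5 had an unadjusted p under 0.05, all higher, where 2.78% of all genes were. Fos, a subunit of the AP-1 transcription factor, was at 9.84, 9.92, 10.04, 10.03 and 9.44 in long-term endothelial arrays, against 8.97, 7.95 and 8.33. Long-term tumor cells had 10.53, 9.50, 9.72, 9.77 and 10.42, against 10.04, 9.83 and 9.26. The endothelial groups did not overlap and the tumor groups did, with a difference of 1.16 ± 0.37 (adjusted p = 0.676 by limma). Egr1 (0.95 ± 0.33), Ier3 (0.96 ± 0.35) and Junb (0.69 ± 0.29) had positive differences of like size. Untreated endothelial array 1 was the highest of its group in the list mean, 8.53 against 8.13 and 8.24, and the 2 highest treated arrays, 3 and 4 at 9.23, were those high in macrophage markers.

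Genes of vessel identity were divided. Of 24 genes of tip cells, the leading cells of a vessel sprout, 16 had a negative difference (45.0% of all genes) and 8 an unadjusted p under 0.05, of which 7 lower, where 2.55% of all genes were. The median was -0.18 and 0 were called. Unc5b, a netrin receptor, was at 6.44, 7.25, 6.98, 7.53 and 8.06 in long-term endothelial arrays, against 8.48, 8.51 and 9.35, without overlap. Its tumor cell effect was -0.05 ± 0.21 and the difference -1.48 ± 0.46 (limma adjusted p = 0.673). Esm1, a proteoglycan of tip cells induced by VEGF, was at 5.60, 4.16, 4.13, 4.62 and 6.52, against 5.75, 6.06 and 7.85, and had a difference of -1.48 ± 0.63. In Lama4 (-1.2 ± 0.31) and Igfbp3 (-1.14 ± 0.34) the larger part lay in the tumor cells, where the effects were 0.93 and 0.91. Pdgfb, a ligand by which endothelial cells recruit pericytes, had a positive difference of 1.03 ± 0.34.

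Of 18 arterial and Notch genes, 4 had an unadjusted p under 0.05, all lower (2.55% of all genes), while 10 of 18 were positive. The median of 0.08 had no stable sign, at -0.33 without untreated endothelial replicate 1 and -0.13 without the 3 arrays high in macrophage markers. Beside Gja5 and Unc5b the lower ones were Efnb2 (-0.93 ± 0.32), the ephrin-B2 ligand of arteries, and the Notch target Hey1 (-1.16 ± 0.49). Hey1 was at 8.28, 7.45, 7.43, 8.81 and 8.85 in long-term endothelial arrays, against 8.72, 10.16 and 9.10 in untreated ones, with overlap. Dll4, the Notch ligand of tip and arterial cells, had a difference of 0.33 with an interval from -0.32 to 0.97. Of 12 venous and capillary genes 9 were positive with a median of 0.34, among them Vwf at 1.14 ± 0.45 and Cd36 at 1.14 ± 0.61. No gene of these lists passed.

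For the drug's targets the data allow bounds. Kdr, the main VEGF receptor of vessels, had a difference of -0.11 (95% interval -0.63 to 0.40), and Flt1, a further VEGF receptor, 0.03 (-0.55 to 0.62), so differences of over 2-fold were outside both intervals. Kdr was at 9.86 to 10.32 in long-term and 9.85 to 10.56 in untreated endothelial cells, and at 3.69 to 4.05 and 3.71 to 4.11 in the tumor cell groups. Flt1 is positive by a small amount only and turned negative under renewed quantile normalization. Fgfr1 had 0.47 (0.01 to 0.93) and Pdgfrb 0.57 (-0.37 to 1.51). Fgfr1 was at 8.26 to 8.72 in long-term and 8.08 to 8.48 in untreated endothelial arrays, against 8.91 to 9.29 and 9.17 to 9.47 in the tumor cell groups. Pdgfrb was at 5.97 to 7.29 and 5.83 to 6.63 in the same endothelial groups, against 7.26 to 8.54 and 8.02 to 9.08 in tumor cells. Among ligands Vegfa had 0.98 (-0.45 to 2.42), Pgf 1.29 ± 0.64, Vegfc -1.07 ± 0.39 and Pdgfa 0.73 ± 0.25. Vegfa in endothelial arrays was at 6.80, 7.74, 8.53, 8.81 and 7.21 after treatment, against 8.24, 5.56 and 6.47, and its 3 highest values belonged to the 3 arrays high in macrophage markers. Without these the difference was 1.16, and with 1 array left out it ran from 0.38 to 1.72, the ends without untreated endothelial replicates 2 and 1. Angpt2, an antagonist of Tie2 signaling in sprouting vessels, had 1.02 (-0.05 to 2.10). By list, 1 of 10 VEGF family, 2 of 12 FGF family, 2 of 7 PDGF family and 1 of 9 angiopoietin and Tie genes had an unadjusted p under 0.05, where 5.33% of all genes did, and 0 were called. The medians were -0.02, 0.13, 0.51 and -0.05. Of 16 genes of ERK feedback, which report signaling downstream of these receptors, 8 were positive and 8 negative with a median of 0.02, and 3 had an unadjusted p under 0.05, all higher (2.78% of all genes). The medians of the VEGF, angiopoietin and ERK feedback lists each took both signs as single arrays were left out.

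Hypoxia and glycolysis genes mostly had positive effects in both cell types. Their differences were mostly small against the error, and for many a 2-fold difference was not settled. Of 18 glycolysis genes 16 had a positive effect in endothelial cells (median 0.36) and 14 in tumor cells (median 0.43). The median difference was 0.09 (0.02 to 0.18 with 1 array left out), with 12 of 18 positive, and 9 intervals lay within 2-fold (73.1% of all genes). The 3 with an unadjusted p under 0.05 were all lower (2.55% of all genes): Pfkp and Aldoa, described below, and Eno2, the neuronal enolase, at -0.76 ± 0.33. Of 29 hypoxia genes 22 were positive in endothelial cells (median 0.19) and 26 in tumor cells (median 0.39), with a median difference of -0.10. Only 8 of these 29 intervals lay within 2-fold. The mean of the 18 glycolysis genes was 7.29, 7.85, 7.49, 7.78 and 7.54 in long-term endothelial arrays, against 7.29, 7.12 and 7.16, and 7.50, 7.74, 7.52, 7.60 and 7.61 in long-term tumor cells, against 7.31, 7.15 and 7.21. In tumor cells the groups did not overlap, and in endothelial cells treated replicate 1 equalled an untreated array.

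**Figure D4:**
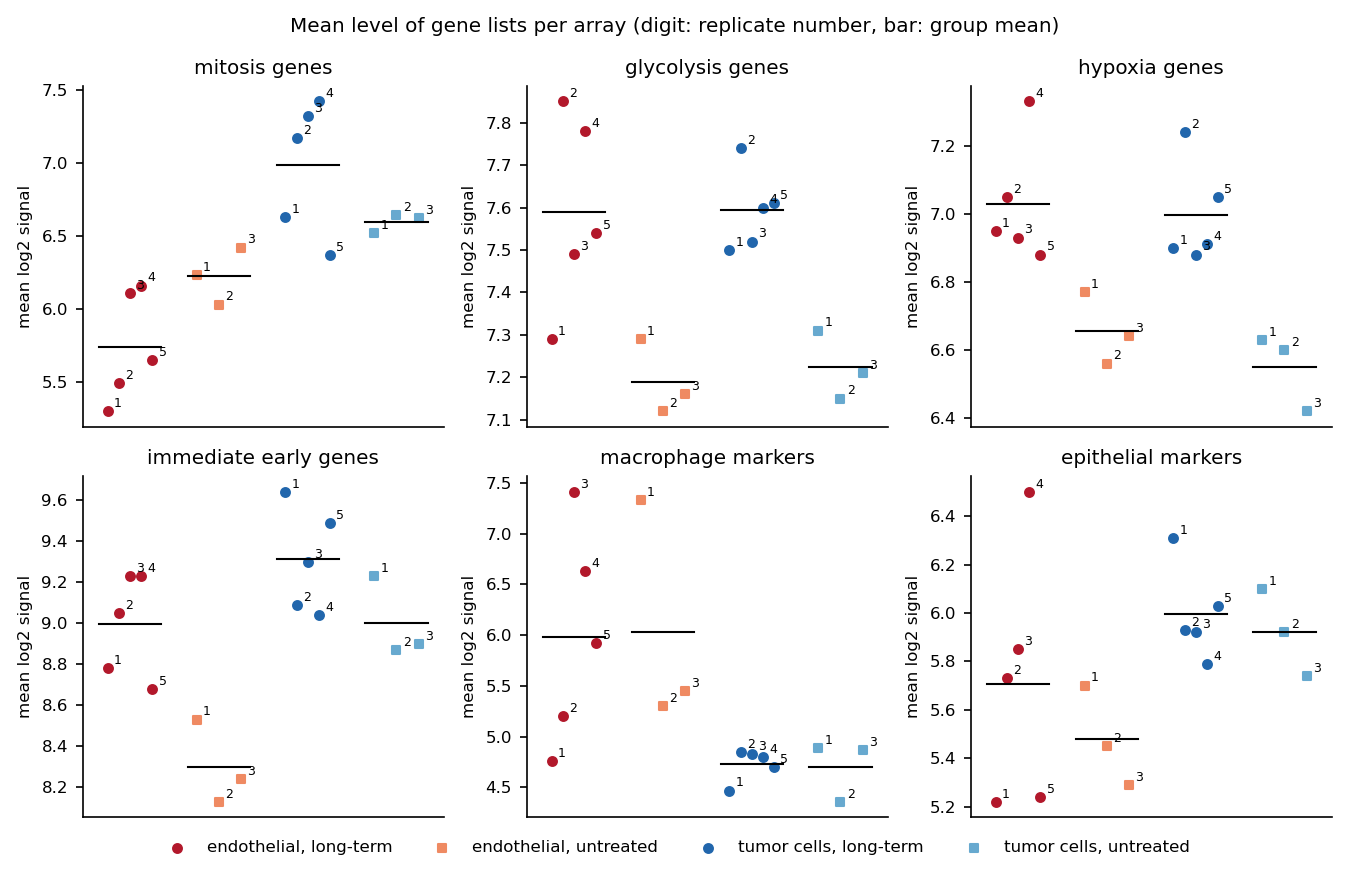
Mean log2 signal of 4 gene lists and 2 marker lists in each array of the 4 groups, with replicate numbers as digits and bars at group means. Mitosis means lie mostly lower in treated than untreated endothelial cells, with treated arrays 3 and 4 in the untreated range. They lie mostly higher in treated than untreated tumor cells. The bars of glycolysis and hypoxia lie higher in the treated groups of both, with treated endothelial array 1 level with an untreated array in glycolysis. Macrophage markers are highest in long-term endothelial arrays 3 and 4 and untreated array 1.

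Bnip3, a mitochondrial protein induced by low oxygen that promotes mitophagy, had a large effect in both. It was at 6.45, 7.13, 6.78, 7.46 and 6.98 in long-term endothelial arrays, against 5.51, 5.01 and 5.75. In tumor cells it was at 7.86, 8.50, 7.75, 8.62 and 8.24 after treatment, against 6.36, 5.33 and 6.16. Neither pair of groups overlapped, and 0.15% of all genes were likewise higher in both, with 0.0401% lower in both. In tumor cells it rose by 2.24 ± 0.25 (adjusted p = 0.00811 by limma), in endothelial cells the effect was 1.54 ± 0.25 (adjusted p = 0.324), and the difference was -0.71 with an interval from -1.48 to 0.07 (adjusted p = 0.941). The difference between the cell types itself thus did not pass.

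The Bnip3 promoter is shown since the gene had the largest effect of the hypoxia genes in tumor cells. Capitals mark ACGTG, the core bound by hypoxia-inducible factors, found on both strands as 1 palindrome. The window is chr7:138909457-138909756 on the minus strand of GRCm38.p6.
Bnip3: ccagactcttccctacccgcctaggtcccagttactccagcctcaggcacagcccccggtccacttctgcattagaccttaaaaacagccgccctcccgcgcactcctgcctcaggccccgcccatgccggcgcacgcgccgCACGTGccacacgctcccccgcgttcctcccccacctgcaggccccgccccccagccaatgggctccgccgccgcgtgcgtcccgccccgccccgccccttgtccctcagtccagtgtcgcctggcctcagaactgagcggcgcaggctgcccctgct
Counting both strands, ACGTG was in the window of 72.7% of 22 hypoxia genes and 70.6% of 17 glycolysis genes with a window, against 24.4% of all genes and 34.6% of mitosis genes. The first of the matches starts 108 bases before the gene's start.

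Pfkp, the platelet form of phosphofructokinase, had the largest difference of the glycolytic enzymes. It rose by 1.17 ± 0.17 in tumor cells (adjusted p = 0.0397 by limma), with 6.03, 6.09, 5.43, 5.95 and 6.42 after treatment, against 4.96, 4.69 and 4.80. In endothelial cells it was at 7.13, 6.95, 6.35, 7.06 and 7.22, against 6.62, 7.34 and 7.31, with overlap. The difference was -1.31 (interval -2.13 to -0.50, adjusted p = 0.603). The liver form Pfkl had -0.16 (-1.19 to 0.87).

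Aldoa, the glycolytic aldolase, was high and precise, at 10.94 to 11.25 in treated and 10.75 to 10.82 in untreated endothelial cells and at 11.29 to 11.61 in treated and 10.72 to 10.89 in untreated tumor cells. It rose by 0.63 ± 0.09 in tumor cells (limma adjusted p = 0.0281), had an effect of 0.32 ± 0.11 in endothelial cells, and a difference of -0.30 (-0.58 to -0.03, adjusted p = 0.887). Ldha, which makes lactate from pyruvate, had 0.65 in endothelial and 0.50 in tumor cells and a difference of 0.15 (-0.29 to 0.60). Phosphoglycerate kinase, Pgk1, had 0.65 and 0.61 and a difference of 0.04 (-0.42 to 0.50). For these 3 enzymes a difference of over 2-fold was outside the interval.

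The lactate transporters were less precise. Slc16a3, the lactate exporter MCT4, was at 5.30, 7.19, 6.06, 5.99 and 6.80 in long-term endothelial arrays, against 6.62, 4.85 and 5.16, and between 4.56 and 4.66 in treated and 4.76 and 4.86 in untreated tumor cells. The difference was 0.91 (-0.22 to 2.05). It was 1.61 without the 3 endothelial arrays high in macrophage markers, and ran from 0.57 to 1.45 with 1 array left out, the ends without untreated endothelial replicates 2 and 1. Slc16a1, the transporter MCT1 often used for lactate uptake, was at 5.15, 7.08, 5.83, 5.36 and 4.57, against 4.67, 5.45 and 5.47, in endothelial cells, and at 7.13 to 7.76 in treated and 7.24 to 7.29 in untreated tumor cells. Its difference was 0.20 (-0.87 to 1.27), with an opposite sign (-0.06) without the 3 endothelial arrays high in macrophage markers. By list, the 10 genes of lactate and pH transport had a median difference of 0.13, and -0.01 without those 3 arrays. Intervals this wide settle neither direction nor a 2-fold size. Ldhb had 0.62 (-0.10 to 1.33) and the glucose transporter Slc2a1 0.49 (-0.49 to 1.47).

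**Figure D5:**
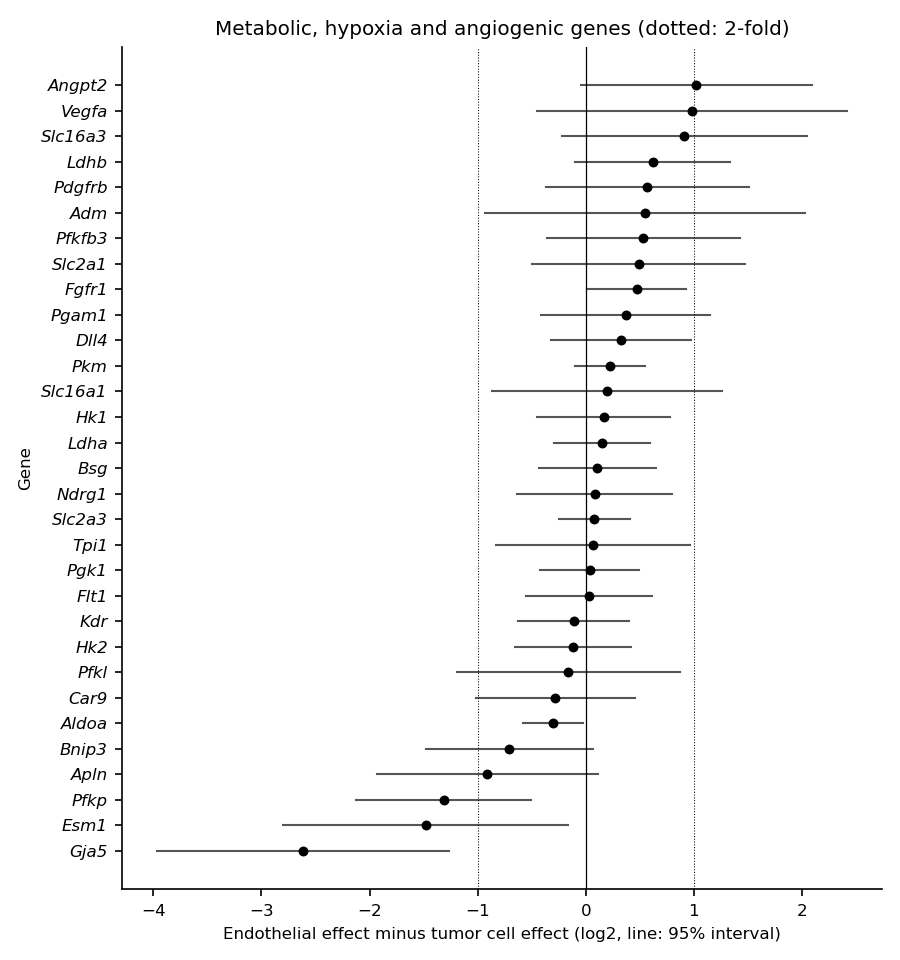
Endothelial minus tumor cell effect (log2 difference of the long-term minus untreated differences) of 31 metabolic, hypoxia and angiogenic genes, with 95% intervals and dotted lines at 2-fold. The intervals of Gja5, Esm1, Pfkp and Aldoa lie below 0 and that of Fgfr1 just above it, while those of Ldha, Pgk1, Kdr and Flt1 lie within 2-fold.

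The genes called in tumor cells are set here beside their endothelial effects. For some of them the endothelial effect was imprecise, as for Saa3 (1.01, 95% interval -1.21 to 3.23). Of the 15 that rose, 12 had a positive and 3 a negative endothelial effect, and the 95% interval of the endothelial effect was above 0 in 4, namely Bnip3, Hspa1a, Cavin2 and Aldoa. Their difference between the cell types is negative in all 15, a direction that choosing by the tumor effect favors. Cxcl14, a chemokine, rose by 1.83 ± 0.21 in tumor cells (limma adjusted p = 0.00811), with 0.40 ± 0.43 in endothelial cells and a difference of -1.42 ± 0.49. Hspa1a, an inducible heat shock protein, rose by 1.14 ± 0.08 (adjusted p = 0.000152), with 0.81 ± 0.34 and a difference of -0.33 ± 0.36. Cavin2, a caveolar coat protein outside the naming rule, rose by 0.77 ± 0.12 (adjusted p = 0.0397 by limma), with 0.69 ± 0.27 and a difference of -0.08 ± 0.30. The 3 that fell were Mmp12 and the small RNAs Scarna13 and Snora44, both outside the naming rule. Their endothelial effects were -0.04 ± 0.10, 0.66 ± 0.40 and 0.05 ± 1.07.

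Ribosomal protein genes, at high levels in every array, had small and precise differences. Of 22 measured, 19 were positive with a median of 0.16, effects were positive in 18 in endothelial and in 6 in tumor cells, and every interval lay within 2-fold. Rps18 had 0.52 ± 0.22, Rplp0 0.27 ± 0.15 and Rps2 0.25 ± 0.11. Collagens had a median of -0.12 with Col12a1 lowest at -1.42 ± 0.46, and basement membrane and integrin genes -0.07 with Lama4 lowest. Acute phase genes spread widely, from Saa1 at -2.37 to Serpina3n at 1.21 ± 0.44, around a median of 0.01. None of these lists had a called gene. Markers of the cell types gave medians of -0.09 (22 endothelial), 0.07 (20 epithelial) and 0.00 (20 macrophage). Of these markers 2, 1 and 0 had an unadjusted p under 0.05, where 5.33% of all genes did. The macrophage median depended on single arrays, at -0.51 without long-term endothelial replicate 3 and 0.47 without untreated endothelial replicate 1, and the epithelial one ran from -0.08 without long-term endothelial replicate 4 to 0.27 without untreated tumor replicate 3. The medians of collagens, basement membrane and integrin genes, acute phase genes and endothelial markers also took both signs as single arrays were left out.

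Whether the cell type difference at 21 days was that of 7 days was tested in the same fit, and here the untreated arrays cancel. By limma 7 genes were called (0.0351%), 5 with a more positive difference at 21 than at 7 days (0.0251%) and 2 with a more negative one (0.0100%). The 7-day difference itself had 19 called genes (0.0953%), 6 positive (0.0301%) and 13 negative (0.0652%). It shares the untreated arrays with the 21-day difference, and for the mitosis genes the medians were -0.84 at 21 days and -0.55 at 7 days. At 7 days the mitosis list mean was lower in both cell types, without opposite signs. It was 5.07 to 5.46 in short-term endothelial arrays, against 6.03 to 6.42 in untreated ones, and 6.04 to 6.38, against 6.52 to 6.64, in tumor cells. Macrophage markers moved with the times: their mean was 4.76 to 7.41 in long-term, 4.44 to 4.83 in short-term and 5.30 to 7.33 in untreated endothelial arrays, and their median cell type difference was -1.07 at 7 days, against 0.00 at 21 days. Their part in these results was not tested. Calls of the 21 against 7 days comparison depended on the arrays: 199 were made without short-term endothelial replicate 2 and 32 without short-term endothelial replicate 1.

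In Galnt3, Fermt1 and Nes the tumor cell arrays of the 2 times lay apart while the endothelial ranges overlapped. Untreated tumor cells were at 4.39 to 4.85, 3.79 to 3.82 and 4.30 to 4.88 in these genes. That is within the long-term ranges, so the short-term arrays were those that lay apart. Galnt3, an enzyme that starts O-linked glycosylation, was at 4.67, 4.48, 4.07, 4.18 and 4.97 in long-term tumor cells, against 6.77, 6.65, 6.73 and 6.86 in short-term ones. In endothelial cells it was at 4.11 to 4.37, against 4.15 to 4.40. The change of the cell type difference was 2.25 (limma adjusted p = 1.85e-05). Fermt1, the epithelial kindlin-1 of integrin adhesion, was at 3.37 to 3.92, against 5.13 to 6.35, in tumor cells, and at 3.52 to 3.90, against 3.85 to 4.0, in endothelial arrays, with a change of 1.96 (limma adjusted p = 0.00122). Nes, the intermediate filament nestin, was at 3.92 to 5.09, against 6.04 to 6.52, in tumor cells, and at 9.02 to 9.48 in both endothelial groups, with a change of 1.83.

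Rgl1, a guanine nucleotide exchange factor for Ral, went the other way, and untreated tumor cells, at 6.62 to 7.14, lay between the 2 times. It was at 7.87, 7.87, 7.80, 7.97 and 7.40 in long-term tumor cells, against 5.20, 5.30, 5.30 and 5.27 in short-term ones, and at 8.87 to 9.28, against 8.35 to 9.15, in endothelial cells, for a change of -2.18 (limma adjusted p = 0.00034). Ptgfr, described above, was at 3.68 to 3.98 in short-term tumor cells, with a change of -1.63. In Tmem63b, a membrane ion channel, the endothelial cells differed, with 7.48 to 7.76 in long-term and 6.22 to 6.87 in short-term arrays, for a change of 1.36. Untreated endothelial arrays, at 7.35 to 8.01, overlapped the long-term ones and not the short-term ones. For tumor cells the long-term and short-term groups were 7.65 to 8.13 and 7.87 to 8.23. Esyt3, an extended synaptotagmin outside the naming rule, was the remaining called gene. With a weight per array Ptgfr and Nes no longer passed (limma adjusted p = 0.0715 and 0.172).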

How the data were processed

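Gene expression was measured on 23 arrays, and depth does not apply to them: precision is limited by 3 to 5 arrays a group. For each transcript cluster the authors deposited a log2 signal, made with RMA and the oligo package, per the submitters' processing notes (versions and settings not given in the sources used here). They ran from 1.93 to 14.06. Of 35556 clusters 21789 named 1 gene, 1621 several and 12146 none in the platform annotation. Of the single-gene clusters 21698 were found in RefSeq, giving 19938 genes, and 999 genes had over 1 cluster. Columns were matched to samples by title. No scan date or slide was given, so batches could not be checked.

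Group means were fitted with limma 3.58.1 in R 4.3.3 (lmFit, contrasts.fit, eBayes, two-sided), over all 23 arrays for the cell type difference, over the 11 endothelial or 12 tumor cell arrays for the effect in 1 cell type. Errors are standard errors of the fit, intervals are its 95% intervals, and adjusted p are Benjamini-Hochberg over all genes, called under 0.05. The p-values measure the spread between arrays. The fit was run on simulated data as a check of its estimates only. There the noise was independent with a shared spread per gene, whereas the spreads of the real arrays differed between the cell types.

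The genes, lists and tests were chosen with earlier results of these data known. Named are the 14 genes with the smallest p in each direction (none was called), up to 4 members of a list by p, a panel of 31 metabolic and vessel genes, and up to 4 called genes per direction of the comparison of times. Predicted genes, small RNAs (with symbols starting Rn, so also Rnf genes) and olfactory receptors were left out. Of the 778 symbols on 34 function and 14 marker lists 720 were measured, and 21 lists are described. The labels do not say whether same-numbered arrays came from the same tumor, so the main fit has no pairing. Deviations of same-numbered arrays correlated at -0.11 to 0.06 between the cell types (11 pairs) and -0.15 to 0.03 between treatments. Such correlations cannot show whether tumors were shared. Alternatives were filters on dim genes, a variance trend, array weights, other clusters, renewed normalization, blocks and arrays left out. Promoters are RefSeq windows of 300 bases.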

Additional observations from a re-analysis of the deposited data

Results flagged for a closer look

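In 12 of the 214 groups of 5 arrays examined (86 genes and 21 list means, in each long-term group) 1 array lay far from the other 4, where about 10.7 are expected by chance. In long-term endothelial arrays these were Slc20a1 in replicate 5 (9.28, next 8.88), Ptgfr in replicate 4 (3.73), Pgam1 in replicate 5 (9.16), Angpt2 and Pdgfrb in replicate 3 (6.96 and 7.29), Efnb2 in replicate 1 (9.02), Lama4 in replicate 5 (10.75) and the mean of the DNA replication genes in replicate 4 (6.76). Replicates 3 and 4 are those high in macrophage markers. In long-term tumor cells they were Arhgap11a in replicate 5 (5.59, next 6.24), Tmem63b in replicate 5 (8.13), Fgfr1 in replicate 4 (8.91) and Pdgfa in replicate 4 (7.47).

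The cell type difference itself differed between 21 and 7 days, by limma's test of that contrast, for Ptgfr (-1.63), Galnt3 (2.25), Fermt1 (1.96), Nes (1.83), Tmem63b (1.36) and Rgl1 (-2.18), values on the log2 scale, 21 minus 7 days.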

How the results depend on the processing

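The 0 calls of the 21-day cell type difference became 2 with a weight per array (Sez6l2 and Snora52), 1 over the 16 untreated and long-term arrays only (Snora52) and 2 without the 3 endothelial arrays highest in macrophage markers (Tnfrsf11b and Golt1b), an alternative chosen after seeing the data. With 1 array left out the count ran from 0 to 5: without untreated endothelial replicate 1 it was 5 (Tnfrsf11b, Klhl23, Golt1b, Sez6l2 and Snora52), and 1 each without untreated tumor replicate 2 (Mmp12) or 3 (Ptgfr), long-term tumor replicate 5 (Arhgap11a), untreated endothelial replicate 2 (Hoxd3os1) or 3 (Lrrc25) or short-term endothelial replicate 1 (Snora52). It stayed at 0 in all 3 fits with a replicate block. The 7 calls of the 21 against 7 days comparison became 4 among genes above the 50th percentile of level, 12 with a variance trend, 12 with renewed quantile normalization and 6 with the block, where Tmem63b did not pass (adjusted p = 0.062 by limma). With 1 array left out they ran from 7 to 199: 199, 32 and 11 without short-term endothelial replicates 2, 1 and 3, 13 without untreated endothelial replicate 2 or long-term endothelial replicate 2 or 5, and 12 without long-term tumor replicate 2 or 5. The 0 endothelial calls became 2 with a variance trend and 34 when fitted over all 23 arrays, and 0 to 1 with 1 array left out (1 without untreated replicate 1). The 18 tumor cell calls became 10 with array weights, 11 with renewed quantile normalization, 2 with the block and 9 over all 23 arrays. With 1 array left out they ran from 5 to 30, at 30 when this was untreated replicate 1, 5 for untreated replicate 2 or 3, 10 for short-term replicate 1, 8 for short-term replicate 2 and 11 for long-term replicate 2. The cause was not tested. Of 122 named genes 112 kept their sign in every alternative. The other 10 were Cx3cr1 and 9 genes of the panel with small differences. Ndrg1 turned to -0.070 with array weights and -0.11 without the 3 arrays, where Slc16a1 turned to -0.062, Bsg to -0.086 and Pfkl to 0.15. Flt1 turned to -0.0081 with renewed quantile normalization, and without the endothelial array highest in epithelial markers Tpi1 turned to -0.092 and Pgk1 to -0.065. With 1 array left out, the difference ran from -0.13 to 0.18 for Flt1, -0.23 to 0.44 for Ndrg1, -0.089 to 0.16 for Pgk1, -0.17 to 0.46 for Slc16a1, -0.16 to 0.36 for Tpi1, -0.0074 to 0.18 for Bsg, -1.17 to 0.22 for Cx3cr1, -0.36 to 0.070 for Hk2, -0.30 to 0.051 for Kdr and -0.47 to 0.017 for Pfkl. The median over all genes ran from 0.0044 to 0.042 over the alternatives.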

Other observations

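Small RNAs were outside the naming rule, and those named here were chosen after their values were seen. Snora52, a small nucleolar RNA, had the largest positive difference between the cell types of all genes, 2.82. Its log2 level was 8.04, 7.57, 7.30, 7.58 and 7.66 in long-term endothelial arrays, against 6.22, 5.02 and 5.39 in untreated ones. In tumor cells it was at 10.23, 9.39, 9.44, 9.82 and 9.51 after long-term treatment, against 10.31, 10.37 and 10.56. Both pairs of groups were without overlap, in opposite directions. It did not pass (adjusted p = 0.207 by limma), and did over the 16 arrays of the comparison alone (adjusted p = 0.0185). Snora73a and Snora73b were likewise higher without overlap in long-term endothelial arrays, with means of 8.02 and 7.70, against 5.73 and 5.27 in untreated ones. Their tumor cell groups overlapped. Scarna13 had a difference of 2.18 (adjusted p = 0.207 by limma). Small RNAs with negative differences were not counted.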
